A study of Mus musculus with 6 samples.

Results

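This section describes 41 genes that copy DNA or mark the S phase of the cell cycle, in primary mouse lung fibroblasts (LFs) exposed to TGFβ. They were taken from a fixed list of gene symbols, covering licensing factors, helicase subunits, DNA polymerases, the sliding clamp and its loader, nucleotide synthesis, S phase cyclins and replication-coupled chromatin, and all 41 were found among the 55364 genes listed. RNA was sequenced from the 3' end of transcripts (Quant-Seq) in 3 libraries of wt LFs and 3 libraries of LFs labelled as TKS5 knockout. The study describes the second group as heterozygous littermates (Tks5+/-) that carry an allele targeting an exon of Sh3pxd2a, the gene of the podosome scaffold Tks5. All 6 libraries came from C57Bl6/J mice of 8 to 10 weeks, whose LFs were grown out of collagenase-digested lungs for a few passages, deprived of serum and then given TGFβ1 at 10 ng/ml for 24 h, so that no library without TGFβ entered the comparison. The study describes its samples as biologically independent, while the labels do not tie a replicate to an animal or culture, and the p-values measure the spread between these libraries.

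Before S phase, the origin recognition complex with Cdc6 and Cdt1 loads the Mcm2 to Mcm7 ring onto origins, and geminin (Gmnn) binds Cdt1 to prevent a second loading. Cdc45 and the GINS complex then join the ring to form the active helicase, the polymerases extend both strands around the clamp PCNA, and RPA covers the exposed single strand. Many of these genes are targets of the E2F transcription factors, which are released when cyclin E and its kinase act on the retinoblastoma protein. Fibroblasts deprived of serum are known to leave the cycle, and these transcripts are low in such cells.

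The 6 libraries held 1344507 to 2369882 counts, and levels are given as CPM, the counts set against the scaled size of each library. Sh3pxd2a itself held 205, 190 and 284 counts in wt and 238, 258 and 260 in the second group, and the test gave a log2 fold change of 0.29 (SE 0.20, edgeR adjusted p = 0.249). Its level was therefore not lower in the second group, the counts are not specific to the targeted exon, and they do not verify the labels. Markers of macrophages summed to 405, 368 and 2307 CPM in the wt libraries against 130 to 153 CPM in those labelled Tks5+/- (14 markers, of which Adgre1, Ptprc and Marco were at 0 in every Tks5+/- library). Endothelial markers summed to 109 to 135 CPM against 45.6 to 60.4 CPM and mesothelial markers to 18.2 to 23.8 CPM against 2.56 to 8.23 CPM. The endothelial marker Ramp2 went the other way, with means of 25.8 and 31.7 CPM, and was not called. Of 10 epithelial markers, 9 summed to 22.5 to 53.4 CPM in wt and 0 to 1.76 CPM in the second group (Krt18 and Cldn4 were called lower), while Ager, the tenth, was called higher (log2 fold change 1.82, adjusted p = 4.53e-05). Fibroblast markers summed to 9626 to 11894 CPM in wt and 11662 to 15894 CPM in the second group, and 4 of 5 lymphocyte markers were at 0 in every library. Single fibroblast markers moved in both directions: of 12, 5 were called higher (Col3a1, Pdgfra, Vim, Thy1 and Tagln) and 2 lower (Pdgfrb and Fn1). Of all genes tested, 22.8% were called higher and 22.1% lower. The part of these other cells in the values below was not tested, and in bulk RNA fewer cells of a type cannot be told apart from less RNA per cell. The 4 Y-linked genes examined summed to 101 to 107 CPM in wt and 21.5 to 32.9 CPM in the second group. Ddx3y was called lower (-2.84, edgeR adjusted p = 1.45e-08), Eif2s3y was not (-0.23, adjusted p = 0.688), and Xist had no count in any library. The study used mice of both sexes, and the part of sex was not tested.

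Of the 41 genes, 35 had enough counts to be tested, and in libraries labelled Tks5+/- 12 of them were called higher and 2 lower (edgeR, adjusted p under 0.05 with a change of at least 1.2-fold). Among all 10346 genes tested, 22.8% were called higher and 22.1% lower, so that calls in either direction were common in this comparison. The genes called higher were Rpa3, Cdc45, Dut, Gmnn, Gins2, Ccne1, Orc6, Tk1, Pcna, Pole4, Tyms and Rfc3, and those called lower were Pold2 and Rfc5. The other 21 tested genes, among them the 6 subunits of the Mcm ring, passed in neither direction. The median log2 fold change was 0.48 over the 35 genes and -0.046 over all genes tested, with 24 of the 35 above 0 and 11 below.

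Each library can be read separately. Every Tks5+/- library lay above every wt library for 13 of the 35 genes, where 26.1% of all genes tested did so, and below for 3 of the 35, against 27.6% of all genes. For the other 19 genes the groups overlapped. The wt libraries were not alike: replicate 3 held the top wt value for 29 of the 35 genes and the top value of all 6 libraries for 12, and it is also the library with 2307 CPM of macrophage markers. Without wt replicate 3, 36 genes were tested, of which 14 were called higher and 2 lower with a median log2 fold change of 0.83 (20.2% of all genes higher and 18.0% lower in that fit).

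The filter on low counts bears on the direction of these numbers. A gene was kept when at least 3 libraries reached 4.89 CPM (of unscaled totals), and Cdc45 and Rpa3 passed only through the Tks5+/- libraries. In all, 7 tested genes had fewer than 3 wt libraries over this level, and 5 of these were called higher (Cdc45, Rpa3, Gmnn, Orc6 and Tk1), while the other 7 genes called higher were among the 28 with all 3 wt libraries over it, of which 2 were called lower. Of all tested genes with all 3 wt libraries over that level, 21.4% were called higher and 24.1% lower, so the share of higher calls in the 28 was near the background. Of those with fewer, 37.4% were called higher and 0.117% lower. With at least 10 counts required in every library, 26 replication genes were tested, 7 were called higher and 3 lower and the median log2 fold change was 0.25, where 23.9% of all genes were called higher and 22.9% lower, again near the background. With no filter all 41 genes were tested, 12 were called higher and 3 lower, and the median was 0.47, where 11.3% of all genes with a count were called higher and 11.5% lower. The third gene called lower in that fit was Lig1 (log2 fold change -0.61, adjusted p = 0.0462).

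**Figure D1:**
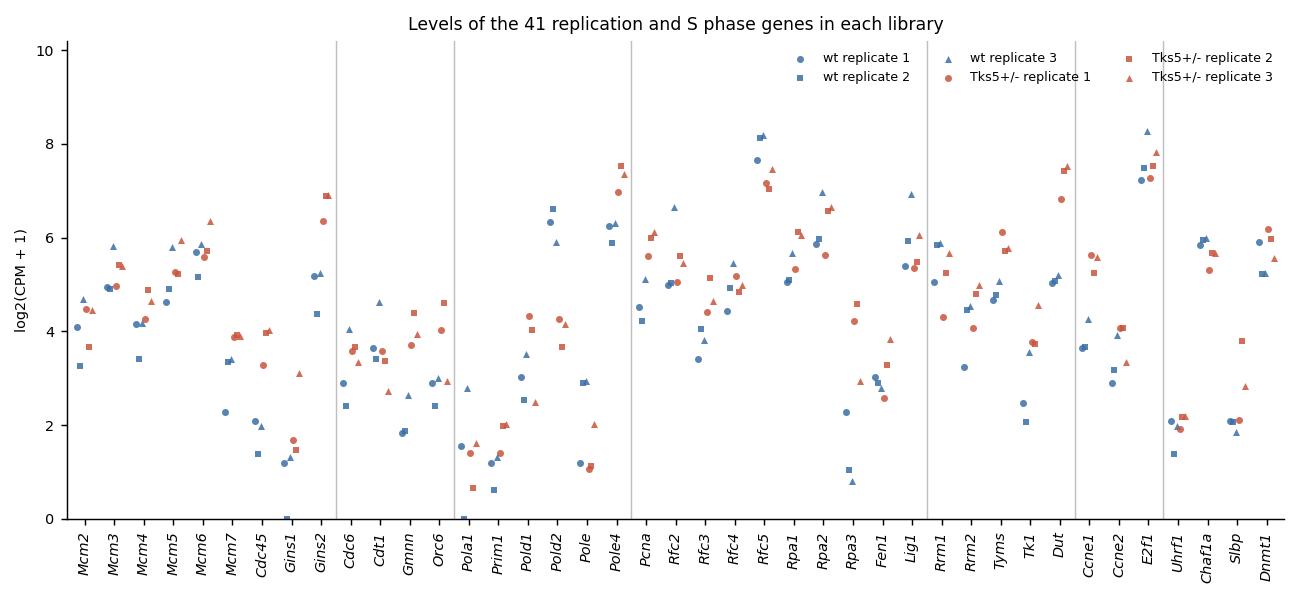
Levels of the 41 genes in each of the 6 libraries, as log2(CPM + 1) on the y axis, with genes grouped by role from helicase at the left to chromatin at the right (vertical lines). Blue points are the wt and red points the Tks5+/- libraries, with a circle, square or triangle for replicates 1, 2 and 3; the wt triangle is the top blue point for most genes, and Dut, Gins2, Ccne1 and Cdc45 show all 3 red points above the blue ones.

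The counts of several genes could not be separated from those of a neighbouring gene on the opposite strand. Gins2, a subunit of the GINS complex, held 55, 37 and 100 counts in wt and 148, 201 and 234 in libraries labelled Tks5+/-, and Gse1, which overlaps its end by 2758 bases on the other strand, held the same 6 counts. Rfc5, a subunit of the clamp loader, held 311, 517 and 781 counts in wt and 259, 222 and 344 in the second group, and Wsb2 held 304, 512, 724, 245, 194 and 311 in the same order. Pold2, the accessory subunit of polymerase delta, held 124, 181 and 160 counts in wt and 33, 20 and 33 in the second group. Aebp1, a gene of the fibroblast matrix that ends 91 bases away on the other strand, held 136, 191, 169, 39, 26 and 35. Both genes called lower and one gene called higher are thus among these pairs, and which gene of each pair the reads came from cannot be told.

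For Wsb2 the fit gave a log2 fold change of -0.86 (adjusted p = 0.00226) beside -0.78 for Rfc5, and for Aebp1 it gave -2.20 (adjusted p = 5.55e-07) beside -2.32 for Pold2. A gene within 500 bases whose counts differed, summed over the libraries, by no more than 30% of the gene's own counts was taken as a near copy, a limit set after seeing the data. By this limit 6 of the 35 genes had one: Gins2, Rfc5 (5.92% of its counts differed), Pold2 (8.17%), Chaf1a with Ubxn6 (4.65%), Rfc4 with Eif4a2 (16.0%) and Ccne2 with Ints8 (24.8%). All 6 neighbours lie on the opposite strand. The same holds for 1394 of the 10346 genes tested (13.5%), 1108 of them with the near copy on the opposite strand, and 50 genes shared identical counts with a gene on the other strand. With every such gene left out, 29 of the replication genes remained, 11 were called higher and 0 lower by edgeR, and the median log2 fold change was 0.57 (22.8% of the remaining genes higher and 22.2% lower). At an unadjusted p under 0.05, 1 of the 29 was lower by edgeR (Cdt1) and 0 by DESeq2 or limma-voom, which called 0 lower as well.

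Rfc2, another subunit of the clamp loader, shares its end with Lat2, an adaptor protein of myeloid and other blood cells, over 1784 bases on the opposite strand. Rfc2 held 48, 59 and 269 counts in wt and 59, 81 and 84 in libraries labelled Tks5+/-, and Lat2 held 25, 32 and 204 in wt and 5, 14 and 11 in the second group (Lat2 log2 fold change -2.76, adjusted p = 0.0410). Wt replicate 3 stood apart in both genes, and it is the library with the most macrophage marker RNA. As counted, Rfc2 did not pass (log2 fold change -0.44, 95% interval -1.46 to 0.59, adjusted p = 0.465). The counts of Rfc2 beyond those of Lat2 were 23, 27 and 65 in wt and 54, 67 and 73 in the second group, or 17.8 ± 5.47 CPM and 35.4 ± 5.08 CPM (SD, n = 3), with no overlap in CPM (exact two-sided permutation p = 0.1, the smallest that 3 against 3 allows). This subtraction was chosen after the values were seen and has no fit across genes. Other genes overlap a neighbour without sharing its counts: Cdc45 overlaps Ufd1 by 209 bases and held 5 to 30 counts where Ufd1 held 108 to 171, and Orc6 overlaps Vps35 by 171 bases while Vps35 fell (log2 fold change -1.07, adjusted p = 0.00188).

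**Figure D2:**
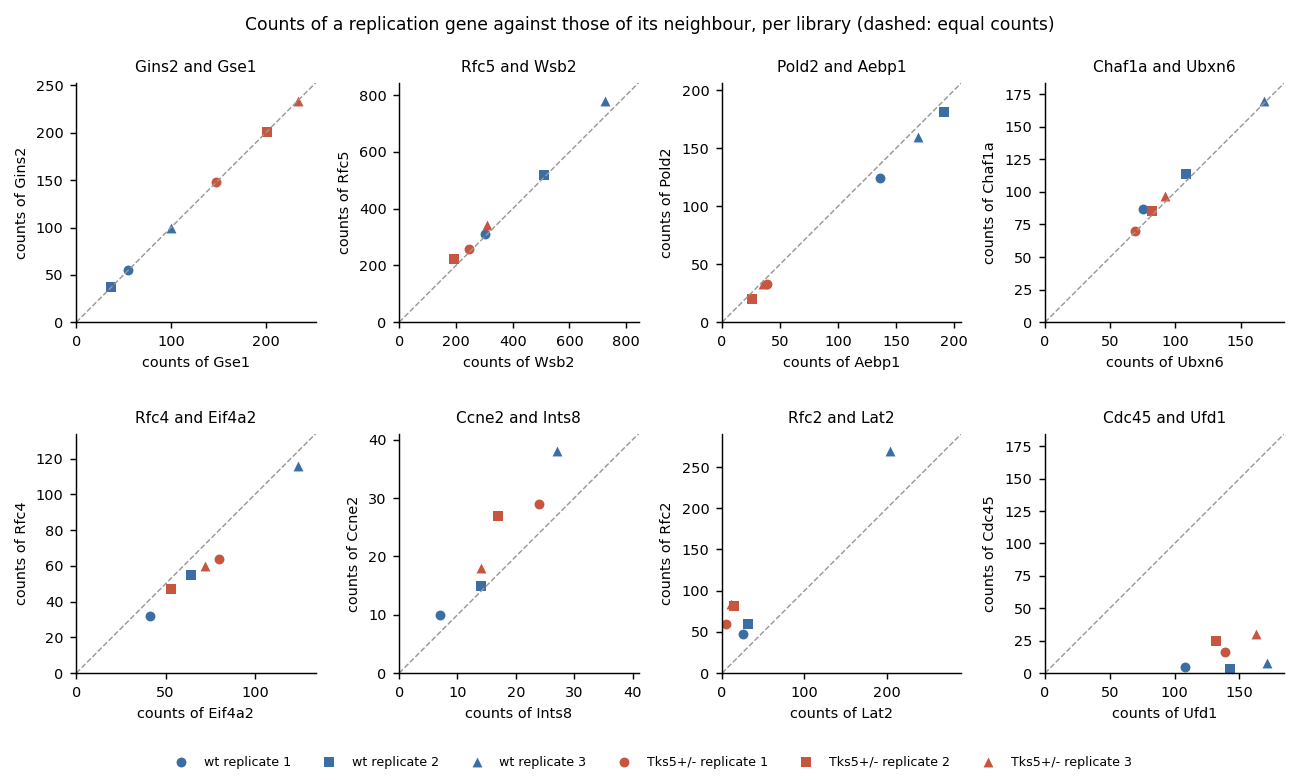
Counts of 8 replication genes (y axis) against those of the neighbouring gene on the opposite strand (x axis), 1 point per library, blue for wt and red for Tks5+/-, with replicates 1, 2 and 3 as circle, square and triangle. Points on the dashed line have equal counts: Gins2 and Gse1 lie on it in all 6 libraries, Rfc5, Pold2, Chaf1a and Rfc4 lie close to it, Rfc2 follows Lat2 through wt replicate 3, and Cdc45 lies far from Ufd1.

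The letters of E2F sites were counted in the promoters. In windows of 300 bases around the start site (250 before and 50 after, from RefSeq on GRCm38.p6, matched by symbol for 34 of the 41 genes), one of the words TTTCCCGC, TTTGGCGC, TTTCGCGC or TTTGCCGC stood on either strand in 13 of 34 genes (38.2%). The same search found 2.61% of all 27025 genes with a window and 4.73% of the 7592 tested genes with one. By outcome, the words stood in 2 of the 10 genes called higher that had a window (Rfc3 and Pole4), 0 of the 2 called lower, 9 of the 18 not called and 2 of the 4 not tested. A match is a description of letters and not a bound site, and no test was made of these shares. The windows below show 2 genes called higher with matches, the Mcm6 promoter with several matches and no call, and Dut, called higher with no match in its window. The Dut window begins at 125247265, inside the gene, which is annotated from 125247190. The bases before that annotated start were not searched. Capitals mark the E2F words, overlapping matches running together. They are read 5' to 3' on the strand of the gene.
Mcm6, chr1:128359656-128359955, minus strand: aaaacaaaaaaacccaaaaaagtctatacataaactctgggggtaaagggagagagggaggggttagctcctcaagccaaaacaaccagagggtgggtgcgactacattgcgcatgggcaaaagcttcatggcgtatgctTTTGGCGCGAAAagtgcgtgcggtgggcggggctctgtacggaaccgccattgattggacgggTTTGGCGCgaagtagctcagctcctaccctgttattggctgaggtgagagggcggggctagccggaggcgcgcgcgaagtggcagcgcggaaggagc
Rfc3, chr5:151651159-151651458, minus strand: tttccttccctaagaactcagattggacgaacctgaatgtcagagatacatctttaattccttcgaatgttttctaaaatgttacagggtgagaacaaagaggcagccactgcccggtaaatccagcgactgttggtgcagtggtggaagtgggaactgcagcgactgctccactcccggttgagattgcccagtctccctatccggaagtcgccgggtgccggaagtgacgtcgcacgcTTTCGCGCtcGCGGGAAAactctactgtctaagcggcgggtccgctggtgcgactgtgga
Pole4, chr6:82652825-82653124, minus strand: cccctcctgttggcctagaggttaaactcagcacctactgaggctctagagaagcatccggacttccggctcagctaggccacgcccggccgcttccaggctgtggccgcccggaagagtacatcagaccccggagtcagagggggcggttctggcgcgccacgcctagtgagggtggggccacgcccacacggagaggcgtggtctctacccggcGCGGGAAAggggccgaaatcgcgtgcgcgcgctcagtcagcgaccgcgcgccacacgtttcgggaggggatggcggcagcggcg
Dut, chr2:125247265-125247564, plus strand: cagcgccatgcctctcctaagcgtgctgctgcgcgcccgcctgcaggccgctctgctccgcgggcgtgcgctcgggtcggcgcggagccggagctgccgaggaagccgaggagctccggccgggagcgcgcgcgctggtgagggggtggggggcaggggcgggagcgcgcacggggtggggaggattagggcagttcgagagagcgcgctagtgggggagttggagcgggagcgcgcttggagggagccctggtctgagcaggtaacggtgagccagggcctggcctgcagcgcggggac

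In Rfc3 the matches begin 10 bases before the first base of the transcript and at that base, and in Pole4 the match begins 34 bases before it. In Mcm6 they begin 110, 106 and 47 bases before it.

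Of the genes that set the entry into S phase, cyclin E1 rose. Ccne1 (chromosome 7, 38097984 to 38107534 on GRCm38, as for the positions that follow), the cyclin that with Cdk2 starts S phase, stood at 11.6, 11.8 and 18.2 CPM in wt and 48.3, 36.9 and 47.1 CPM in libraries labelled Tks5+/-. The groups did not overlap, and the log2 fold change was 1.64 (SE 0.27, edgeR adjusted p = 4.40e-05). Its paralog Ccne2, whose counts follow Ints8, did not pass (0.46, 95% interval -0.31 to 1.23, adjusted p = 0.328). E2f1, the transcription factor itself, stood at 149, 179 and 310 CPM in wt and 153, 183 and 227 CPM in the second group. Wt replicate 3 held its top value, the groups overlapped, and the interval of the difference ran from -0.70 to 0.32 (adjusted p = 0.562).

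Among the licensing factors, the inhibitor of loading rose, while Cdt1 and Cdc6 did not pass the test. Gmnn (13:24751845-24761923), the inhibitor of Cdt1, held 4, 5 and 14 counts in wt and 22, 34 and 28 in libraries labelled Tks5+/-, or 3.48 ± 1.48 CPM and 15.4 ± 4.03 CPM (SD, n = 3). No library of one group reached the other, and the log2 fold change was 2.05 (SE 0.42, adjusted p = 4.03e-04). Cdt1, which geminin binds, held 18, 18 and 64 counts in wt and 20, 16 and 11 in the second group, with a log2 fold change of -0.84 (interval -1.65 to -0.02, adjusted p = 0.0869). Of the fits that left out 1 library, it passed in that without wt replicate 2 (-1.07, adjusted p = 0.0446), and it also passed with at least 10 counts required in every library (-0.91, adjusted p = 0.0417). Cdc6, which loads the ring with Cdt1, held 10, 8 and 42 counts against 20, 20 and 18, and its interval of -0.67 to 1.07 holds changes in both directions.

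Orc6, the smallest subunit of the origin recognition complex, was called higher on weaker ground. It held 10, 8 and 19 counts in wt and 28, 40 and 13 in the second group, so that the groups overlapped through Tks5+/- replicate 3, and the log2 fold change was 1.32 (SE 0.43, adjusted p = 0.0161). The call was lost without wt replicate 2 (adjusted p = 0.0652) and without Tks5+/- replicate 2 (log2 fold change 0.89, adjusted p = 0.143).

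Of the helicase activators, Cdc45 rose, and the Mcm ring held no called gene. Cdc45 (16:18780447-18811987), which joins the loaded ring when an origin fires, held 5, 3 and 8 counts in wt and 16, 25 and 30 in libraries labelled Tks5+/-. Every value of the second group was at least 16, all wt values were at most 8, and the log2 fold change was 2.28 (SE 0.46, adjusted p = 3.21e-04). Cdc45 passed the filter only through the Tks5+/- libraries, so its direction in that fit was fixed by the filter. With no filter the log2 fold change was 2.27 (SE 0.49, edgeR adjusted p = 4.71e-05). Gins2, whose counts are those of Gse1 as well, had a log2 fold change of 1.78 (SE 0.25, adjusted p = 7.06e-06). Gins1, of the same complex, was not tested, with 2, 0 and 4 counts against 4, 3 and 15, so that Tks5+/- replicate 3 alone held more than 4 counts.

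None of the Mcm2 to Mcm7 genes was called by edgeR, DESeq2 or limma-voom, and at an unadjusted p under 0.05 edgeR and limma-voom gave 2 of the 6 as higher and DESeq2 0. Their log2 fold changes were 0.10 for Mcm2, -0.04 for Mcm3, 0.70 for Mcm4, 0.30 for Mcm5, 0.33 for Mcm6 and 0.83 for Mcm7. Mcm4 (16.7, 9.63 and 17.1 CPM in wt against 18.1, 28.7 and 24.1 CPM) and Mcm7 (3.86, 9.10 and 9.64 CPM against 13.7, 14.0 and 13.8 CPM) lay higher in every Tks5+/- library, with adjusted p = 0.0694 and 0.0747. Mcm3 stood at 29.6, 28.9 and 55.6 CPM in wt and 30.2, 41.5 and 40.9 CPM in the second group, with an interval of -0.60 to 0.51, which holds changes in both directions, and the value was 0.36 without wt replicate 3. On leaving out a single library, Mcm4 passed without Tks5+/- replicate 1 (0.91, adjusted p = 0.0302) and Mcm5 without wt replicate 3 (0.76, adjusted p = 0.0428). Mcm7 passed with the authors' normalized counts (1.14, adjusted p = 0.0277) and with the correction for length and GC content (1.01, adjusted p = 0.0364). Summed over the 9 helicase genes, the level was 181, 141 and 261 CPM in wt and 260, 318 and 384 CPM in the second group, which overlap narrowly through wt replicate 3. Much of the difference between these sums came from Gins2, whose counts cannot be told from those of Gse1. Gins2 held 35.4, 19.8 and 37.1 CPM in wt and 81.2, 118 and 120 CPM in the second group.

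**Figure D3:**
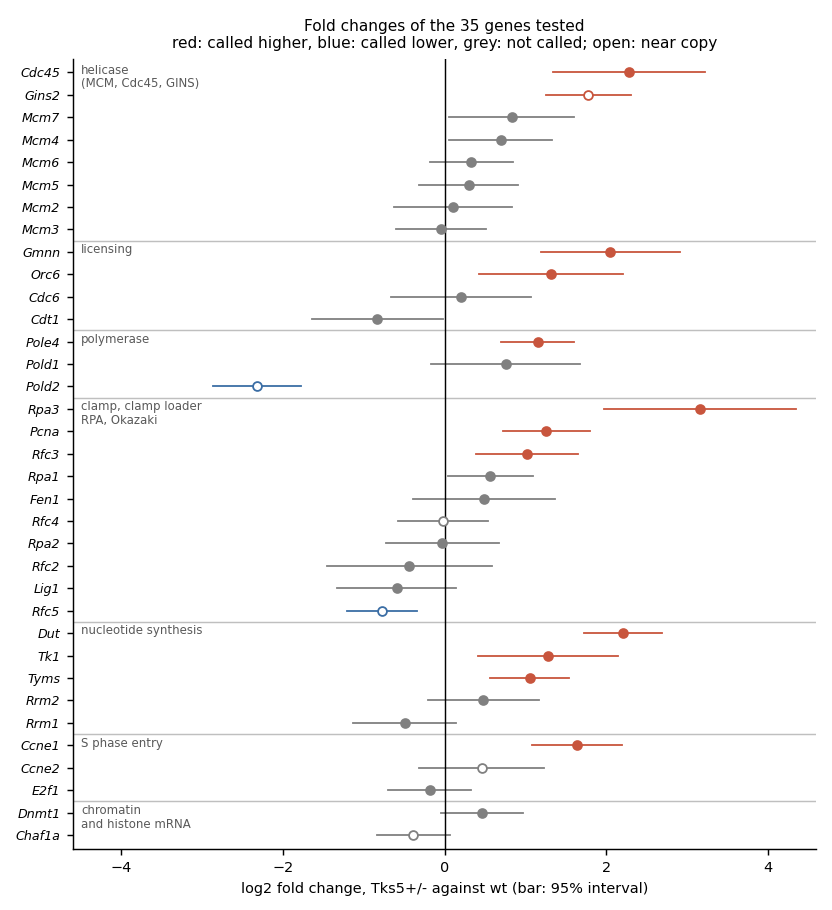
Log2 fold change of each of the 35 tested genes in Tks5+/- against wt LFs (x axis), with its 95% interval as a bar, in rows grouped by role. Red points were called higher, blue lower and grey not called, and open points have a near copy on the opposite strand; Rpa3, Cdc45, Dut and Gmnn lie above 2, the 6 Mcm genes are grey, and both blue points are open.

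The polymerase subunits did not move together. Pole4, a small histone-fold subunit of polymerase epsilon, stood at 75.3, 58.3 and 78.2 CPM in wt and 125, 183 and 163 CPM in libraries labelled Tks5+/-. The groups were well apart, with a log2 fold change of 1.15 (SE 0.22, adjusted p = 1.80e-04). Pold2, counted with Aebp1, fell by 2.32 on the log2 scale (SE 0.26, adjusted p = 4.40e-07), from 79.8, 96.9 and 59.3 CPM to 18.1, 11.7 and 16.9 CPM. Pold1, the catalytic subunit of polymerase delta, held 11, 9 and 28 counts in wt and 35, 26 and 9 in the second group. Tks5+/- replicate 3 lay below every wt library in CPM, and the log2 fold change was 0.76 (adjusted p = 0.174). Of the fits without 1 library, Pold1 passed in that without Tks5+/- replicate 3 (adjusted p = 0.0209). The catalytic subunits Pole (2, 12 and 18 counts against 2, 2 and 6) and Pola1 (3, 0 and 16 against 3, 1 and 4) and the primase subunit Prim1 (2, 1 and 4 against 3, 5 and 6) were too low to be tested.

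In the clamp and single-strand group, PCNA and the smallest RPA subunit rose. Pcna (2:132249162-132253314), the sliding clamp, stood at 21.9, 17.7 and 33.7 CPM in wt and 47.7, 62.6 and 68.1 CPM in libraries labelled Tks5+/-. No wt library reached the Tks5+/- range, and the log2 fold change was 1.26 (SE 0.26, adjusted p = 4.60e-04). Rpa3, the small subunit of the single-strand binding protein, held 6, 2 and 2 counts in wt and 32, 39 and 13 in the second group. Its log2 fold change was 3.16 (SE 0.57, adjusted p = 1.30e-04), rising to 4.05 without wt replicate 1, the wt library with 6 counts. The size of that change rests on few wt counts. Rpa3 also passed the filter only through the Tks5+/- libraries, so its direction in that fit was fixed by the filter. With no filter the log2 fold change was 3.14 (SE 0.51, edgeR adjusted p = 2.01e-08).

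The larger RPA subunits did not follow at this threshold. Rpa1 stood at 32.2, 33.2 and 50.1 CPM in wt and 39.0, 68.5 and 65.5 CPM in the second group, with a log2 fold change of 0.57 (adjusted p = 0.0739) that passed without wt replicate 3 (0.81, adjusted p = 0.0245). It passed also when Tks5+/- replicate 1 was left out (0.84, adjusted p = 0.0116). Rpa2 overlapped fully, at 57.3, 61.5 and 125 CPM against 48.3, 94.2 and 99.8 CPM, with an interval of -0.72 to 0.67. The subunits of the clamp loader also differed. Rfc3 rose, from 9.65, 15.5 and 13.0 CPM to 20.3, 33.9 and 24.1 CPM (log2 fold change 1.02, SE 0.30, adjusted p = 0.00904), a call lost without Tks5+/- replicate 2 (0.82, adjusted p = 0.0546). Rfc5, counted with Wsb2, fell from 200, 277 and 290 CPM to 142, 130 and 176 CPM (-0.78, SE 0.21, adjusted p = 0.00489), and Rfc4, counted with Eif4a2, stood at -0.02 (interval -0.58 to 0.54).

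Of the enzymes that finish Okazaki fragments, the flap nuclease Fen1 held 11, 12 and 16 counts in wt and 9, 15 and 26 in the second group and did not pass (0.49, interval -0.39 to 1.37). DNA ligase I (Lig1) stood at 41.2, 59.4 and 120 CPM in wt and 39.5, 43.9 and 65.0 CPM in the second group. Wt replicate 3 held its top value, the groups overlapped, and the log2 fold change was -0.59 (adjusted p = 0.177), which passed on leaving out wt replicate 1 (-0.87, adjusted p = 0.0224). With that library left out the count of genes called lower was 4, and it was 3 without wt replicate 2, against 2 with all libraries. Of all genes, 2044 of 10821 were called lower without wt replicate 1 and 1866 of 10808 without wt replicate 2.

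Of the roles of the 41 genes, nucleotide synthesis had summed levels that did not overlap between the groups. The helicase sums (wt up to 260.66 CPM, second group from 260.11 CPM) and the polymerase sums (166.95 and 166.82 CPM) overlapped by little. In the list of other replication genes described below, the sums of nucleotide synthesis and of S phase cyclin and E2F genes (higher) and of licensing and origin genes (lower) did not overlap either. Much of the nucleotide synthesis difference in that list came from Nme1, with means of 386 CPM in wt and 822 CPM in the second group. Among single genes tested, 26.1% lay higher in every Tks5+/- library and 27.6% lower, so such separation was common. No such share was computed for sums. The 5 nucleotide synthesis genes among the 41 held 101, 140 and 160 CPM in wt and 228, 297 and 340 CPM in libraries labelled Tks5+/-. Much of the difference between these sums came from Dut. Dut (2:125247190-125258608), the dUTPase that keeps uracil out of DNA, stood at 31.5, 32.6 and 36.0 CPM in wt and 112, 169 and 183 CPM in the second group. It had the smallest adjusted p of the 35 genes, at 4.61-fold (SE of the log2 fold change 0.23, adjusted p = 1.85e-07). Thymidylate synthase (Tyms), which makes dTMP from dUMP, stood at 24.5, 26.2 and 32.6 CPM against 68.6, 51.5 and 54.2 CPM. The groups did not overlap, and its log2 fold change was 1.05 (SE 0.24, adjusted p = 9.50e-04).

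Thymidine kinase (Tk1), the salvage enzyme, held 7, 6 and 29 counts in wt and 23, 21 and 44 in libraries labelled Tks5+/-. Its CPM did not overlap, though wt replicate 3 (10.8 CPM) came close to Tks5+/- replicate 2 (12.3 CPM), and the log2 fold change was 1.28 (SE 0.42, adjusted p = 0.0166). The call was lost without wt replicate 1 (adjusted p = 0.0599), wt replicate 2 (0.0864) or Tks5+/- replicate 3 (0.110), and the log2 fold change rose to 2.03 without wt replicate 3. The subunits of ribonucleotide reductase, which makes the deoxynucleotides, were not called. The large subunit Rrm1 stood at 32.2, 56.7 and 58.2 CPM in wt and 18.7, 36.9 and 49.6 CPM in the second group (-0.49, interval -1.13 to 0.14). The small subunit Rrm2 stood at 8.37, 20.9 and 22.2 CPM against 15.9, 26.9 and 30.7 CPM (0.48, interval -0.21 to 1.17).

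None of the 4 genes for chromatin and histone mRNA was called by edgeR, and neither of the 2 tested had an unadjusted p under 0.05 by edgeR, DESeq2 or limma-voom. Dnmt1, which copies DNA methylation at the fork, stood at 58.6, 36.4 and 36.7 CPM in wt and 71.9, 62.0 and 46.1 CPM in libraries labelled Tks5+/- (0.46, adjusted p = 0.129), and passed without wt replicate 1 (0.71, adjusted p = 0.0375). Chaf1a, the large subunit of the histone chaperone CAF-1, counted with Ubxn6, was lower in every Tks5+/- library, at 56.0, 61.0 and 63.0 CPM against 38.4, 49.7 and 49.6 CPM (-0.39, adjusted p = 0.150). Slbp, which binds the end of histone mRNA, held 5, 6 and 7 counts against 6, 22 and 12, and Uhrf1, which guides Dnmt1, held 5, 3 and 8 against 5, 6 and 7. Neither of these was tested, and with no filter the log2 fold changes were 1.28 (adjusted p = 0.0831) and 0.31 (adjusted p = 0.773).

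For single genes the exact permutation test gives p = 0.1 wherever the groups do not overlap, so 3 libraries against 3 cannot pass 0.05 by that test. Of the 14 genes called, 9 were called in the same direction in every alternative that tested them: Ccne1, Cdc45, Dut, Gins2, Gmnn, Rpa3 and Tyms as higher, and Pold2 and Rfc5 as lower. The alternatives reuse the same libraries. The share of all called genes that held in every alternative was not computed, so this count has no background to be set against. Cdc45 and Rpa3 passed the filter only through the Tks5+/- libraries, so in the main fit the filter fixed their direction. Cdc45, Gmnn and Rpa3 were not tested with at least 10 counts in every library. Gins2, Pold2 and Rfc5 share their counts with a neighbour and were absent when near copies were left out.

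The scaling of the libraries moves every value. The scaling factors of the main comparison (TMM) were 1.15 to 1.17 in wt and 0.817 to 0.932 in the second group. With library totals alone the median over all tested genes moved from -0.046 to -0.46, with 13.2% of them called higher and 37.9% lower. Under it 9 of the 35 genes were called higher and 7 lower, and their median log2 fold change was 0.055.

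Transcript length moved with the fold change. Over 10339 tested genes, Spearman's rho of the log2 fold change with the length of the longest transcript was -0.397, and over the 35 replication genes it was -0.402. These are correlations across genes that share the 6 libraries, and genes are not independent replicates. The replication genes called higher had a median length of 1975 bases, and those not called 3431 bases. Among genes shorter than the median of all genes tested (3204 bases), 10 of 19 replication genes were called higher and 1 lower, against 35.1% and 14.2% of all such genes. Among genes at or over that length, 2 of 16 were called higher (Gins2 and Tyms) and 1 lower, against 10.5% and 30.1%. The Mcm genes, at 2962 to 4355 bases, are of the longer kind with the exception of Mcm7. After a correction of every library for its dependence on length, 14 of the 35 genes were called higher and 2 lower (2074 and 1957 of all 10346 genes). The call of Orc6 (0.94, adjusted p = 0.0845) was lost, and Mcm4 (0.80, adjusted p = 0.0421), Rpa1 (0.89, adjusted p = 0.00995) and Dnmt1 (0.85, adjusted p = 0.00689) were called higher. The part of length in the calls was not tested further.

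**Figure D4:**
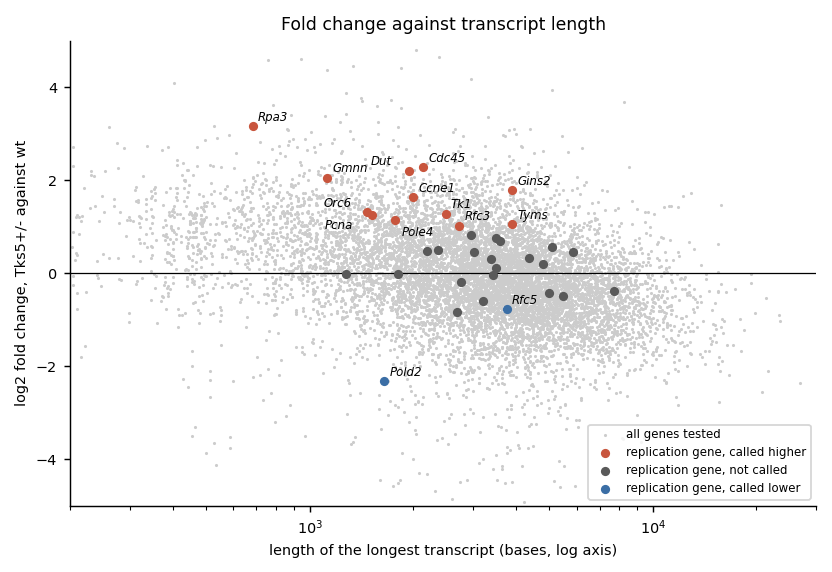
Log2 fold change in Tks5+/- against wt LFs (y axis) against the length of the longest transcript in bases (x axis, log scale), with all genes tested as light grey points and the 35 replication genes in red (called higher), dark grey (not called) and blue (called lower). Of the genes tested, 185 lie outside the axes; most red points lie to the left of 3204 bases, and Gins2 and Tyms lie to the right.

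The rest of the replication pathway was described from a second list of 83 genes, of which 57 were tested. In it 12 genes were called higher and 10 lower (22.8% and 22.1% of all genes tested), with a median log2 fold change of 0.23, so its count called higher is near the background. The count called lower was 4 without wt replicate 2, 5 without Tks5+/- replicate 2 and 6 without wt replicate 3. Of all genes, 1866 of 10808, 1762 of 10876 and 1924 of 10683 were called lower in those fits. By role, nucleotide synthesis had 4 of 8 tested genes higher and 1 lower, and licensing and origin genes had 1 of 13 higher and 4 lower. The 3 genes called higher with the smallest adjusted p were kinases of nucleotide synthesis. Dtymk, which makes dTDP for DNA, held 15, 17 and 30 counts in wt and 77, 83 and 92 in the second group (2.19, SE 0.27, adjusted p = 1.22e-06). Cmpk1, which phosphorylates CMP and UMP, held 32, 47 and 56 against 162, 165 and 127 (1.91, SE 0.24, adjusted p = 1.48e-06). Nme1, a nucleoside diphosphate kinase, held 511, 752 and 1151 against 1217, 1549 and 1740 (1.09, SE 0.21, adjusted p = 2.20e-04).

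The 3 genes called lower with the smallest adjusted p were Rfc1, the large subunit of the clamp loader (30, 48 and 77 counts against 25, 14 and 22, log2 fold change -1.15, adjusted p = 0.00415), Orc2 of the origin recognition complex (27, 35 and 79 against 16, 20 and 16, -1.21, adjusted p = 0.00445) and Pole3, the histone-fold partner of Pole4 (153, 216 and 404 against 134, 96 and 174, -0.74, adjusted p = 0.0108). The partners Pole3 and Pole4 thus moved in opposite directions. Without wt replicate 3 neither Orc2 (adjusted p = 0.0584) nor Pole3 (0.0700) passed, and Pole3 did not pass without Tks5+/- replicate 2 (0.0817). Other subunits of the origin recognition complex are given after their values were seen. Orc3 (-1.25, adjusted p = 0.0132) was called lower, a call lost without wt replicate 2 (0.0801) or Tks5+/- replicate 2 (0.0551). Orc4 (-0.76, adjusted p = 0.0280) was called lower, a call lost without wt replicate 1 (0.0750), wt replicate 2 (0.0882) or Tks5+/- replicate 1 (0.151). Orc5 was not called, though it lay above every wt library in all 3 Tks5+/- libraries (0.81, adjusted p = 0.112), Orc1 was not tested, and Orc6 was called higher. Of the 57 genes, 15 had a near copy, and without these 12 of 42 were called higher and 8 lower (22.8% and 22.2% of all genes without a near copy).

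Genes of mitosis, which act after DNA is copied, were listed for comparison. Of 54 such genes 37 were tested, 22 were called higher and 2 lower (22.8% and 22.1% of all genes tested), and the median log2 fold change was 0.97. The difference between this list and the replication genes was not tested. Cdk1, the kinase that drives mitosis, held 40, 49 and 69 counts in wt and 305, 395 and 518 in libraries labelled Tks5+/- (3.09, SE 0.24, adjusted p = 3.14e-09). Its subunit Cks1b (178, 177 and 394 against 820, 1362 and 1568, 2.52, adjusted p = 9.39e-08) and the centromeric histone Cenpa (10, 27 and 46 against 121, 156 and 135, 2.52, adjusted p = 4.28e-07) followed. Called lower were Cdc20, an activator of the anaphase-promoting complex that has a near copy (-0.60, adjusted p = 0.0176), and Ncapg, a condensin subunit (-1.25, adjusted p = 0.0289). The Cdc20 call was lost without wt replicate 2 or Tks5+/- replicate 2 or 3, and the Ncapg call on leaving out any library but wt replicate 2 (adjusted p up to 0.188). In their promoter windows the E2F words stood in 3 of 45 mitosis genes and 20 of 65 genes of the second replication list, while TTTGAA, the core of the cell cycle homology region of mitotic promoters, stood on either strand in 30 of 45 (66.7%) mitosis genes, 5 of the 34 replication genes and 20.2% of all genes with a window.

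**Figure D5:**
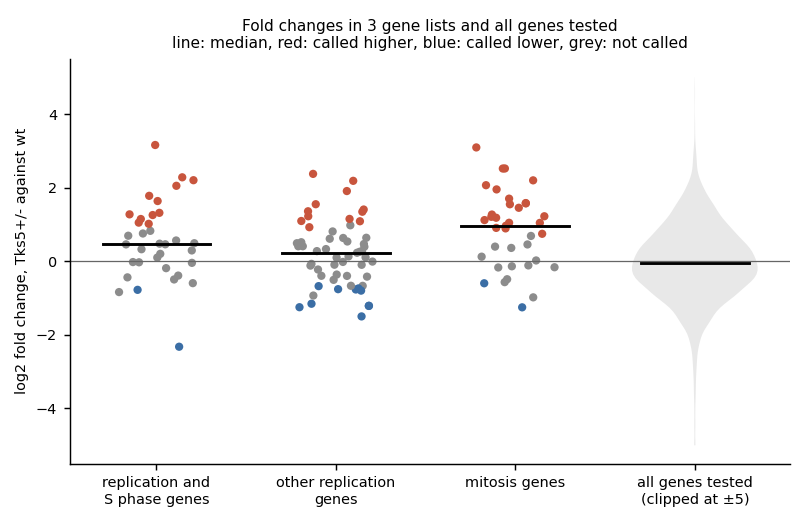
Log2 fold change in Tks5+/- against wt LFs (y axis) for the tested genes of 3 lists and for all genes tested (shaded shape, values clipped at 5 in either direction), with a black line at each median. Red points were called higher, blue lower and grey not called; the medians are 0.48 for the replication and S phase genes, 0.23 for the other replication genes, 0.97 for the mitosis genes and -0.046 for all genes.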

How the data were processed

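Per the study's methods, the authors used Trim Galore to trim the Quant-Seq reads, mapped these to GRCm38 by HISAT2 followed by Bowtie2, and counted them with metaseqR2 over 3' UTR regions, summed per gene; whether counting kept to 1 strand is not given in the sources used here. The deposited raw counts of 6 libraries were used in the main comparison. The authors' normalized counts (EDASeq, rounded to whole numbers and treated here as a score) were used in an alternative only.

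Of 55364 genes listed, 33644 had no count in any library and 55104 were matched to GENCODE M21 on GRCm38. Genes that passed filterByExpr (10346) were fitted in edgeR 4.0.16 (R 4.3.3) by the robust quasi-likelihood F test, with TMM scaling, no covariate and Benjamini-Hochberg adjustment, and calls were made at an adjusted p of 0.05 and a change of 1.2-fold, the study's thresholds. CPM use the scaled library sizes. The fit also gave the standard errors and 95% intervals. Exact two-sided permutation tests compared CPM of 3 against 3 libraries. Counting error alone limits genes with few counts, and PCR reads are not independent molecules.

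The replication genes, the other lists and the tests were chosen with earlier results of these data known. Named are every replication gene, the 3 genes with the smallest adjusted p in each direction of the other lists, and Sh3pxd2a. Cell type markers, sex chromosome genes and genes overlapping or near a replication gene are named in part. Orc1, Orc3, Orc4 and Orc5 were added after their values were seen. Alternatives were DESeq2 1.42.0, limma-voom (limma 3.58.1), RLE, upper-quartile and library-total scaling, the authors' normalized counts with limma on log2(value + 1), no filter, at least 10 counts in every library, no fold threshold, loess corrections (span 0.5, prior count 2) for length, GC content or both, the replicate block, each library left out and, added after seeing the data, genes with a near copy left out. The fit was tested on simulated data.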

Additional observations from a re-analysis of the deposited data

How the results depend on the processing

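Over the single replication genes, 691 values were compared with the main fit. Of these 615 kept their direction and their side of the threshold, 28 newly passed it, 15 no longer passed it and 33 changed sign. The setting with no fold threshold reuses the main fit, so its values were fixed in advance and are among the 615. Genes called higher numbered 7 of 26 with at least 10 counts in every library (23.9% of all genes), a fit with fewer genes tested. Genes called lower numbered 7 under library totals (37.9% of all genes), 0 without near copies (22.2%) and 2 to 4 on leaving out single libraries. In these last fits 1762 of 10876 to 2118 of 10944 of all genes were called lower. The median log2 fold change was 0.055 under library totals, 0.25 with at least 10 counts in every library and 0.42 to 0.83 on leaving out single libraries. Other replication genes called lower numbered 5 with DESeq2 (1865 of all 10346 genes) and 17 under library totals (37.9% of all genes). They numbered 6 with the authors' normalized counts (2175 of 10346) and 4 to 9 on leaving out single libraries. Mitosis genes called higher numbered 14 under library totals (13.2% of all genes). Mitosis genes called lower numbered 4 under library totals (37.9% of all genes) and 0 to 2 on leaving out single libraries. They numbered 1 with DESeq2, limma-voom, the authors' normalized counts, no filter, at least 10 counts and length or GC correction. The same number held with the replicate block with GC correction and with no near copies. In the fits that gave 1, 11.5% to 22.9% of all genes were called lower.

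Log2 fold changes that changed sign were all of genes not called. Under library totals these were Mcm2 (-0.30), Mcm5 (-0.12), Mcm6 (-0.094), Cdc6 (-0.21) and Sh3pxd2a (-0.13). Mcm3 was 0.035 with length, 0.17 with length and GC, 0.014 with the replicate block and 0.031 with the block and GC. Rfc4 was 0.015 with DESeq2, 0.014 with limma-voom, 0.0096 with RLE, 0.13 with the authors' counts and 0.026 with the block. Rpa2 was 0.019 with DESeq2, 0.012 with RLE and 0.0093 with the block. E2f1 was 0.062 with GC, 0.20 with length and GC and 0.11 with the block and GC. Chaf1a was 0.14 with length and 0.26 with length and GC, and Rrm2 was -0.0049 with length and GC. On leaving out single libraries, values ran from -0.20 to 0.57 for Mcm2, -0.21 to 0.36 for Mcm3, -0.12 to 0.99 for Cdc6, -0.71 to 0.38 for Rfc2, -0.23 to 0.30 for Rfc4, -0.22 to 0.44 for Rpa2 and -0.38 to 0.19 for E2f1. Sh3pxd2a passed under the length correction (0.97, adjusted p = 6.59e-04), as it did under that for length and GC together (1.15, adjusted p = 1.41e-04). With length and GC together Pcna (0.54, adjusted p = 0.0914), Pole4 (0.44, 0.0875), Rfc3 (0.65, 0.0897) and Orc6 (0.59, 0.292) no longer passed, and under library totals Rfc3 (0.105), Tk1 (0.0961) and Orc6 (0.0897) did not. The causes of these changes were not tested.

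The groups share replicate numbers 1 to 3. Across genes the deviations of same-numbered libraries correlated at -0.001, -0.064 and 0.082, and those of libraries with different numbers at -0.10 to 0.097. With 3 libraries a group, these values cannot decide whether the numbers mark a shared litter, culture or batch. With the replicate block 2360 genes were called higher and 2308 lower, and 13 replication genes higher and 2 lower. With the block and GC correction 2377 genes were called higher and 2295 lower, and 14 and 3 replication genes. The depth of 1344507 to 2369882 counts a library limits the precision of genes with a few counts, among them the wt values of Rpa3, Cdc45 and Gmnn.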
